A study of Mus musculus with 13 samples.

Results

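Gene expression in Kdm3b knockout (KO) and wildtype (WT) pre-iPSCs was compared at day 2 of treatment with AA+2i, a combination of ascorbic acid (50 µg/mL) with the GSK3 inhibitor CHIR-99021 and the MEK inhibitor PD-0325901. The comparison used 4 of the 13 libraries of the series, which were the WT and KO libraries labelled day 2, with replicates A and B of each genotype. Pre-iPSCs are cells made from mouse embryonic fibroblasts that have started to reprogram but have not reached pluripotency. All 4 cultures were kept in medium with 15% fetal bovine serum and leukemia inhibitory factor and received AA+2i, so that WT and KO differ by label in genotype only. The labels do not say how the knockout was made, how many clones or lines stand behind each genotype, or whether A and B were separate cultures. Genotype and cell line therefore cannot be told apart, and p-values measure the spread between these libraries, which may be technical. The WT and KO libraries of day 0 and of day 10 of AA+2i served for the spread estimate and to set the day 2 difference beside those of the other days. The day 0 libraries are titled DMSO, the solvent, while their treatment label reads AA+2i like that of all others, so the labels do not settle whether they were untreated.

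KDM3B removes methyl groups from lysine 9 of histone H3 (H3K9), a mark of silenced chromatin that is known to hold back reprogramming. It belongs to the family of oxygenases that need iron and 2-oxoglutarate and that ascorbic acid keeps active. GSK3 inhibition stabilises beta-catenin and so raises Wnt target genes, while MEK inhibition lowers ERK signalling, and both favour the naive pluripotent state of embryonic stem cells (ESCs).

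The 4 libraries held 20665010 (WT A), 20724006 (WT B), 20851653 (KO A) and 14891294 (KO B) expected counts. Of 20325 genes in the files, 14324 were tested with edgeR's quasi-likelihood test, and a gene was called at a Benjamini-Hochberg adjusted p under 0.05. Levels are given in CPM (counts scaled to a common library size), always replicate A before replicate B, and fold changes as fitted log2 values of KO over WT with their standard error (SE). The replicate letters differed in the length of the transcripts that gave the reads. The count-weighted mean length was 3135 bases in WT A and 2986 in KO A, against 3716 in WT B and 3916 in KO B. Library letter was therefore also fitted as a block, and each gene's difference was taken within each letter. Calls, fold changes and adjusted p-values are from the fit without the block, which ignores the letter, unless another fit is named.

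Kdm3b was lower in KO in both letters, as labelled. It had 148 and 171 CPM in WT and 19.04 and 29.7 CPM in KO, so that the groups were far apart but KO was not at 0. The log2 fold change was -2.71 (SE 0.39, edgeR adjusted p = 0.00302), with -2.96 within letter A and -2.52 within letter B. In KO, Kdm3b had 44.4 and 65.1 CPM at day 0 and 19.6 and 41.4 CPM at day 10, against 182.5 to 249 CPM in WT at those days. Kdm3a and Jmjd1c, which encode the related members of the KDM3 family, were not called (log2 fold change -0.07, SE 0.18, and -0.17, SE 0.26). Among 22 tested genes of the KDM3 family and of H3K9 methylation, Kdm3b was the one called, and the median was 0.00, against 0.02 over all genes tested. With the block over days 0 and 2, 4 of the 22 were also called higher, against 20.8% of all genes tested in that fit. Zfp644, a zinc finger partner of the H3K9 methyltransferases, was among them (0.39, edgeR adjusted p = 0.00625).

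At day 2, 1498 genes were called, 10.5% of those tested. Of these, 615 were higher in KO (4.29%) and 883 were lower (6.16%). The decreases were larger, with a median log2 fold change of -2.37 among called genes, against 1.58 among the increases. A difference past 4-fold was seen for 514 of the lower and 211 of the higher genes, and one past 16-fold for 207 lower and 17 higher genes. For each called gene the KO and WT values did not overlap, which by itself gives the same sign within both letters. Over all tested genes, 38.7% had groups that did not overlap and 73.9% had the same sign within both letters. With letter as a block over days 0 and 2, 5366 of 13277 genes were called (40.4%), 2762 higher (20.8%) and 2604 lower (19.6%). The counts with the block given for gene lists below stand against these shares, and those without it against 4.29% higher and 6.16% lower. A list count near these shares says nothing particular about the list. All 1466 genes called without the block that this second fit tested were called in it too. The count without the block rested on single libraries, being 760 without WT A, 647 without WT B and 889 without KO B.

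**Figure D1:**
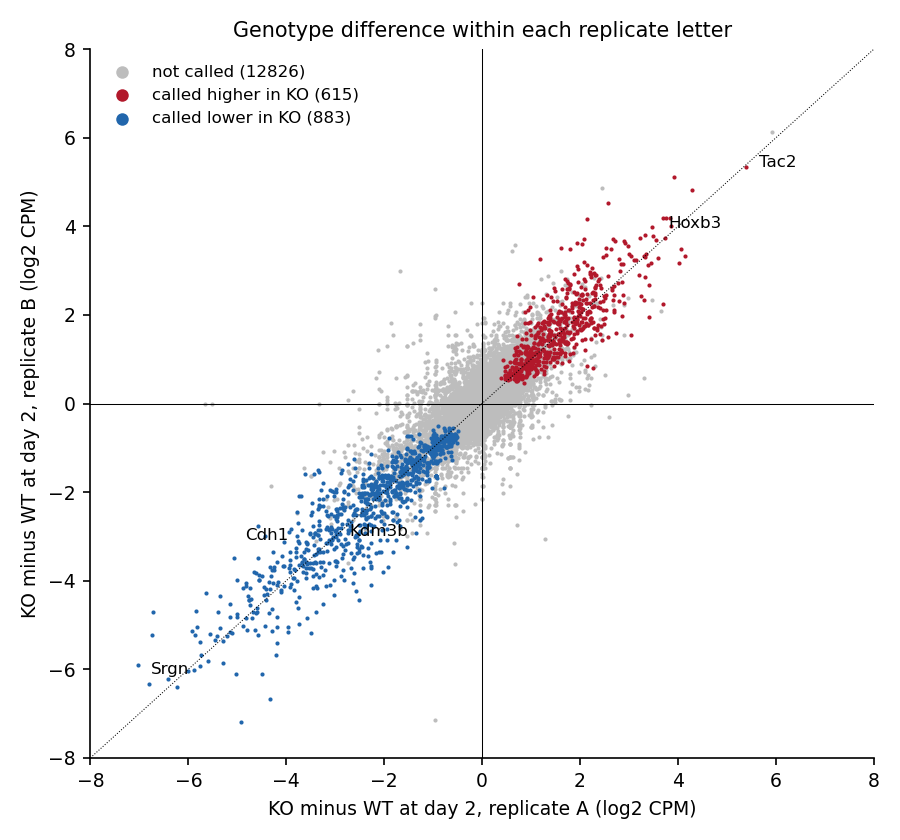
Each point is 1 tested gene, with its KO minus WT difference in log2 CPM within replicate A on the horizontal axis and within replicate B on the vertical axis. Red and blue points are the 615 genes called higher and the 883 called lower, all of which lie in the quadrants where both letters have the same sign, and the dotted line marks equal differences. Over all tested genes, 73.9% had the same sign in both letters.

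The length of transcripts moved with the direction of the calls. When genes were split into 4 equal bins of length, 104 of the shortest bin were called higher and 243 lower, and 204 of the longest were higher and 153 lower. The median difference of the longest bin was -0.02 within letter A and 0.15 within letter B, and that of the shortest was 0.04 and -0.11. The part of transcript length in the calls of single genes was not tested.

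Among genes that averaged at least 5 CPM, the largest decreases included Srgn, Gbp1 and the Rhox genes. Srgn, which encodes the granule proteoglycan serglycin, had 87.1 and 93.9 CPM in WT and 0.566 and 1.46 CPM in KO (log2 fold change -6.51, SE 0.45, edgeR adjusted p = 0.000144). Gbp1 and Gvin1, interferon-inducible GTPases, fell by 6.16 (SE 0.45) and 5.90 (SE 0.43) on the log2 scale. Alox15, an arachidonate lipoxygenase, had 19.6 and 20.9 CPM in WT and 0.257 and 0.397 CPM in KO. The detoxifying enzymes Gsta1, Ephx2 and Cbr2 were between 11.9 and 22.8 CPM in WT and at or below 0.514 CPM in each KO library. Cldn11, a tight junction claudin, fell from 118 and 197 CPM to 1.85 and 5.49 CPM, and its call was lost without KO A (edgeR adjusted p = 0.055). Asprv1, a protease of the epidermis, and Vnn1, a pantetheinase, had log2 fold changes of -5.64 (SE 0.54) and -5.04 (SE 0.34).

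Rhox6 and Rhox9, reproductive homeobox genes of the X chromosome, were lower in KO. Rhox6 had 17.5 and 7.62 CPM in WT, and its 2 KO libraries together held 2 counts against 523 in WT, a scaled ratio of 213 (95% counting interval 58.8 to 1767). Rhox9 had 16.4 and 9.48 CPM in WT and 0.0515 and 0.265 CPM in KO (log2 fold change -6.40, SE 0.57). Of 5 tested Rhox genes these 2 were called. The median of 0.00 comes from genes without counts, since 5 of the 7 Rhox genes found had no count in any of the 4 libraries.

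Tac2, Antxr1, Ric3 and Vldlr led the increases. Tac2, which encodes a tachykinin precursor, had 0.394 and 0.590 CPM in WT and 20.9 and 28.2 CPM in KO (log2 fold change 5.61, SE 1.25, edgeR adjusted p = 0.0221), and its call was lost without WT A, WT B or KO B (adjusted p up to 0.147). Antxr1, an anthrax toxin receptor that binds collagen, rose from 4.54 and 7.66 CPM to 63.0 and 142 CPM (4.07, SE 0.53). Ric3, a chaperone of acetylcholine receptors, rose from 5.23 and 9.93 to 76.9 and 162 CPM (3.97, SE 0.44). Vldlr, a lipoprotein and reelin receptor, and Gpr37, an orphan receptor of the brain, had log2 fold changes of 3.82 (SE 0.46) and 3.69 (SE 0.34). Rfx4, a transcription factor of the neural tube, had 1.92 and 1.86 CPM in WT and 20.5 and 20.3 CPM in KO. Slc17a6, a vesicular glutamate transporter, and Ebf3, a neuronal transcription factor, both had 3.34 (SE 0.55 and 0.41). In 11 of the 15 largest increases KO B was above KO A by more than 1.5 times, and in 8 WT B was above WT A by as much. B was also the letter with the longer mean transcript length.

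Naive pluripotency genes were lower in KO. Of 18 tested, 12 were called, each of them lower, and the median log2 fold change was -1.56. Dppa5a, a marker of naive cells, had 161 and 92.0 CPM in WT and 10.6 and 5.10 CPM in KO (-4.01, SE 0.52, edgeR adjusted p = 0.0019). Klf2, a factor of the naive network, had 70.3 and 65.7 CPM in WT and 22.5 and 17.7 CPM in KO (-1.76, SE 0.17). Dppa2, a regulator of early embryonic genes, was at 6.75 and 3.67 CPM in WT and below 0.5 CPM in both KO libraries. Tdh, threonine dehydrogenase, a metabolic enzyme of ESCs, fell from 216 and 226 CPM to 87.6 and 84.6 CPM (-1.36, SE 0.20).

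Nanog, a core pluripotency factor, had 18.3 and 13.7 CPM in WT and 6.23 and 4.83 CPM in KO (-1.53, SE 0.31, edgeR adjusted p = 0.0145). Its call was lost without WT A or KO B (adjusted p up to 0.0861). Esrrb, a nuclear receptor of the naive network, was at 3.70 and 2.81 CPM in WT, with 3 counts in both KO libraries together against 137 in WT, a scaled ratio of 37.3 (95% counting interval 12.5 to 183). Zfp42 and Tbx3 had log2 fold changes of -3.06 (SE 0.64) and -2.62 (SE 0.46). The call of Zfp42 was lost without WT A, KO A or KO B, and that of Tbx3 without KO A (adjusted p up to 0.102 and 0.0583). The single library of V6.5 ESCs held 291 CPM of Nanog, 289 of Esrrb, 212 of Zfp42 and 2909.5 of Dppa5a, above both genotypes at day 2. The 6 naive markers summed to 265 and 184 CPM in WT and 40.9 and 28.9 CPM in KO.

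Of 8 reprogramming genes tested, 1 was called, near the 10.5% of all genes tested. With the block 3 were higher and 1 lower, against 20.8% and 19.6%. Pou5f1, which encodes OCT4, had 2128 and 3491 CPM in WT and 2318 and 4178 CPM in KO (0.21, SE 0.53, edgeR adjusted p = 0.928). Klf4 had 582 and 1191 CPM in WT and 483 and 1172 CPM in KO (-0.10, SE 0.62). In both genes the letters lay further apart than the genotypes. Sox2 (0.65, SE 0.49) and Myc (0.33, SE 0.57) were not called either, although with the block Sox2 passed (0.59, edgeR adjusted p = 0.00182). Mycn, a MYC family member, rose from 19.1 and 20.6 CPM to 36.3 and 35.6 CPM (0.85, SE 0.15, edgeR adjusted p = 0.00744), a call that was lost without WT A or WT B (adjusted p up to 0.0802). The files do not separate transcripts of reprogramming transgenes, where cells carry them, from those of the endogenous genes.

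Of 18 general pluripotency genes, 5 were called, each lower (median -0.70), and 14 were lower with the block. Tdgf1, the Nodal co-receptor Cripto, had 168 and 179 CPM in WT and 16.4 and 22.8 CPM in KO (-3.15, SE 0.30, edgeR adjusted p = 0.000492). Nodal, its ligand, had 5.52 and 9.98 CPM in WT and 0.206 and 0.132 CPM in KO, and Lefty1, a Nodal inhibitor and target, 2.07 and 2.31 CPM in WT and 0.360 and 0.331 CPM in KO. The call of Nodal was lost without KO B and that of Lefty1 without any of the 4 day 2 libraries (adjusted p up to 0.0544 and 0.108). Among 22 TGF-beta, BMP and Nodal genes 7 were called, each lower, with a median of -0.71, and with the block 13 were lower and 5 higher. The BMP targets Id3 and Smad6 fell by 1.31 (SE 0.27) and 1.29 (SE 0.25) on the log2 scale. Both calls were lost without WT A or KO B (adjusted p up to 0.0991).

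**Figure D2:**
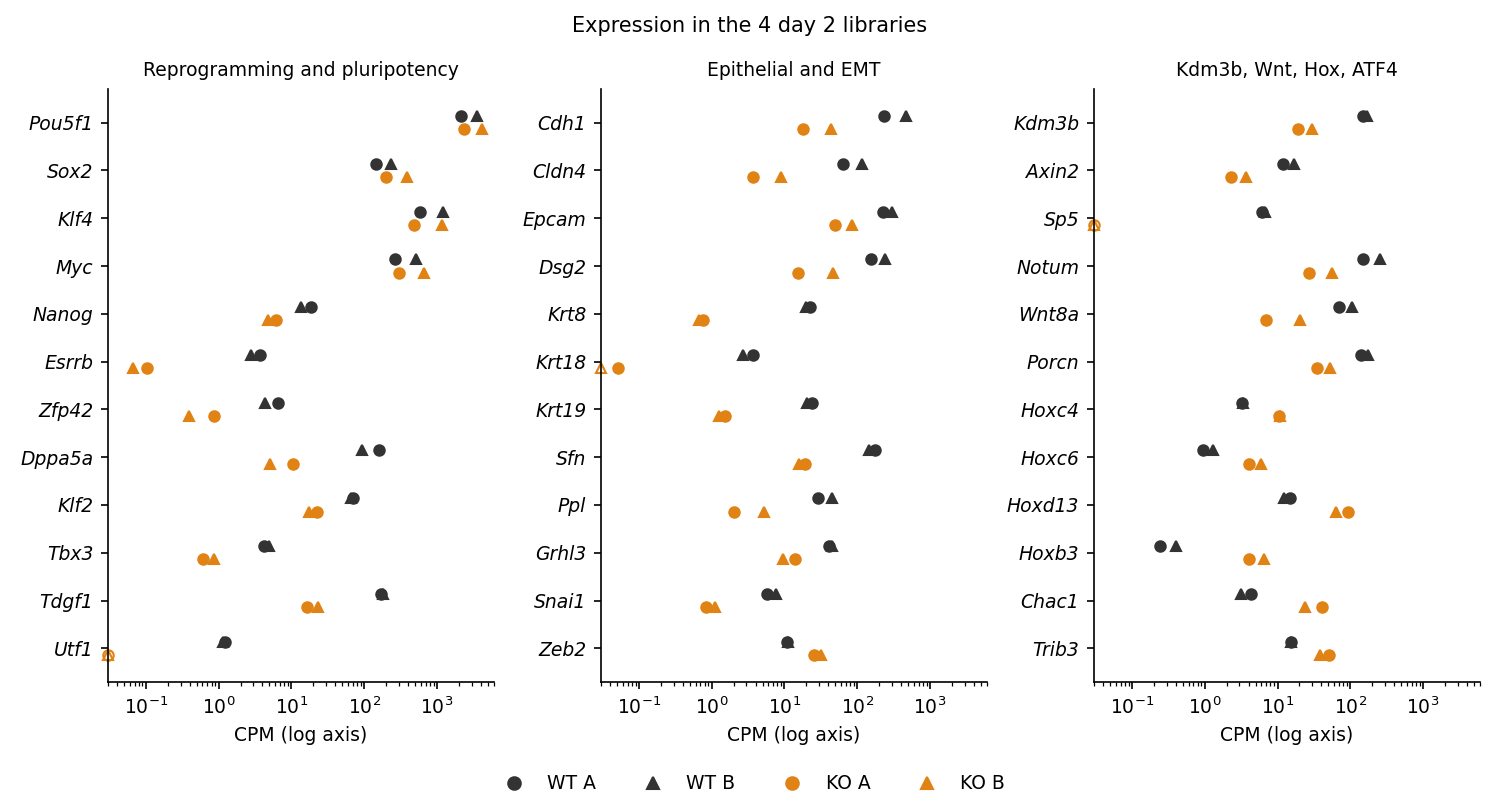
CPM on a log axis for 36 genes in the 4 day 2 libraries, with WT in black, KO in orange, circles for replicate A and triangles for replicate B, and open symbols at the left edge for a count of 0. Pou5f1 and Klf4 overlap between genotypes, while Nanog to Utf1, Cdh1 to Snai1 and Axin2 to Porcn lie lower in KO, and Zeb2, the Hox genes, Chac1 and Trib3 lie higher.

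Epithelial genes were lower in KO. Reprogramming of fibroblasts passes through a mesenchymal-to-epithelial transition, in which E-cadherin and other junction proteins come on. Of 20 tested junction genes 8 were called, each lower (median -0.64), and 17 were lower with the block. Cdh1, E-cadherin, had 235 and 471 CPM in WT and 18.0 and 43.0 CPM in KO (-3.54, SE 0.55, edgeR adjusted p = 0.00449). Cldn4, a tight junction claudin, had 63.0 and 116 CPM in WT and 3.65 and 8.93 CPM in KO (-3.84, SE 0.51). Epcam, an epithelial adhesion molecule, had 224 and 298 CPM in WT and 48.9 and 85.2 CPM in KO (-1.96, SE 0.30). Each KO value of these genes lay below both WT values, and no called gene had groups that overlap.

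Keratins fell with them. Of 5 simple keratins tested, 3 were called lower, with a median of -3.97. Krt8 had 22.4 and 20.0 CPM in WT and 0.772 and 0.662 CPM in KO (-4.87, SE 0.41, edgeR adjusted p = 0.000283). Its partner Krt18 had 1 count in both KO libraries together against 134 in WT, a scaled ratio of 109 (95% counting interval 19.3 to 4351). Krt19 fell from 23.7 and 20.7 CPM to 1.54 and 1.26 CPM (-3.97, SE 0.27). Of 14 genes of stratified epithelium, 8 were called, each lower. The list's median was -3.67, or -3.39 with genes of at most 3 counts in a genotype set at their count ratio or bound. Sfn, the epithelial protein 14-3-3 sigma, had 175 and 144 CPM in WT and 19.3 and 16.1 CPM in KO (-3.17, SE 0.23). Ppl, the desmosomal plakin periplakin, had 28.7 and 45.0 CPM in WT and 2.01 and 5.16 CPM in KO.

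Regulators of the transition moved in both directions. Of 13 tested, 5 were lower and 1 higher. Zeb2, a repressor of E-cadherin that binds E-boxes, rose from 10.9 and 11.2 CPM to 25.6 and 31.4 CPM (1.37, SE 0.18, edgeR adjusted p = 0.00198). Snai1, another repressor of E-cadherin, fell from 5.82 and 7.71 CPM to 0.823 and 1.12 CPM (-2.80, SE 0.34). Grhl3, an activator of epithelial genes, had 41.3 and 44.4 CPM in WT and 13.8 and 9.53 CPM in KO (-1.87, SE 0.24), and Esrp2, an epithelial splicing factor, 9.37 and 10.3 CPM in WT and 4.32 and 4.90 CPM in KO. The call of Esrp2 was lost without any of the 4 day 2 libraries (adjusted p up to 0.106).

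Because ZEB2 and SNAI1 bind E-boxes, the 250 bases before the annotated start of the junction, keratin and stratified genes were searched for CACCTG and its reverse complement CAGGTG. These windows are from RefSeq on GRCm38.p6, while the submitters' build was mm9. Of the 19 members called lower 9 had a window and 6 of these held a match, and of the 20 members not called 14 had a window and 5 held a match, against 17.2% of all 32851 windows. Of the called members with a window, the 3 with the lowest adjusted p are shown, with matches in capitals, and were chosen after values and matches had been seen. They lie at chr4:133602169-133602418 (minus strand), chr15:102004343-102004592 (minus strand) and chr3:92215585-92215834 (plus strand).
Sfn: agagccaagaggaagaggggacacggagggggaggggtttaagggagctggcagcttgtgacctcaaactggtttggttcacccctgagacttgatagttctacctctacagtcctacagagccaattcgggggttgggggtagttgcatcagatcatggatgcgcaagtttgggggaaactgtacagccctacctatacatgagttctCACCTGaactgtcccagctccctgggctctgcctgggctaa
Krt8: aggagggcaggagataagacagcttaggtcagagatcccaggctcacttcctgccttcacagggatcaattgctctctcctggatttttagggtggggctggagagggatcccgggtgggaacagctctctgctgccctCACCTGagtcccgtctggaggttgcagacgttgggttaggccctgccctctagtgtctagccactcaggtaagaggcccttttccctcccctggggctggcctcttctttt
Sprr2a1: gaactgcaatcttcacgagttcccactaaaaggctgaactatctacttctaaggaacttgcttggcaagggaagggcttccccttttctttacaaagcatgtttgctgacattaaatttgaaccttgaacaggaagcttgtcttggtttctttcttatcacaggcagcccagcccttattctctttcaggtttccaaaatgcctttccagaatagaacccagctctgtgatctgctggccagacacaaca
Sfn and Krt8 each hold 1 match and Sprr2a1 holds none. Sprr2a1 shares its reads with a near-identical copy, so that its values are uncertain. A match is not a measured binding site.

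Genes of the trophectoderm, the outer epithelium of the blastocyst, were lower as well. Of 15 tested 7 were called, each lower (median -1.43), and 11 were lower with the block. Gata2 had 13.3 and 20.0 CPM in WT and 0.412 and 0.596 CPM in KO (-5.05, SE 0.35, edgeR adjusted p = 0.000144). Hand1 had 3.16 and 3.99 CPM in WT and 0.206 and 0.132 CPM in KO. Both encode transcription factors of the trophoblast. The list also holds the keratins Krt8 and Krt18. The defining markers were low in both genotypes, since the 5 of them summed to 8.92 and 9.84 CPM in WT and 2.62 and 2.85 CPM in KO.

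Some fibroblast genes were lower too. Of 24 tested 8 were called, each lower (median -0.62, or -0.18 with genes of at most 3 counts at their ratio or bound). With the block 9 were lower and 5 higher, against 19.6% and 20.8% of all genes tested in that fit. Col1a1, the main fibrillar collagen chain, had 4.04 and 17.2 CPM in WT, with 3 counts in KO against 462 in WT, a scaled ratio of 126 (95% counting interval 42.7 to 612). Its call was lost without KO A or KO B (edgeR adjusted p up to 0.0701). Its partner Col1a2 had 1 count in KO against 429 in WT, a scaled ratio of 350 (62.5 to 13860). Thy1, a fibroblast surface protein, had 3.20 and 3.72 CPM in WT and 0.206 and 0.397 CPM in KO (-3.53, SE 0.47). Col5a2, a minor fibrillar collagen, had 5.67 and 12.6 CPM in WT and 0.103 and 0.265 CPM in KO. Of 19 collagens 5 were lower and 1 higher, and with the block 11 were lower and 6 higher.

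The 9 defining fibroblast markers summed to 16.1 and 45.6 CPM in WT and 6.17 and 14.5 CPM in KO, and the 5 epithelial markers to 548 and 907 CPM in WT and 71.4 and 138 CPM in KO. Muscle markers summed to at most 0.0515 CPM in any of the 4 libraries, with Myod1, Myog and Ckm at 0. Immune markers summed to 9.42 and 17.1 CPM in WT and 6.79 and 13.6 CPM in KO, with Tyrobp at 0. The 3 primitive endoderm markers summed to 0.345 and 0.363 CPM in WT and 1.44 and 1.06 CPM in KO, and the 4 endothelial markers to 20.5 and 25.1 CPM in WT and 31.3 and 63.6 CPM in KO, with Tie1 and Emcn at 0. In bulk RNA, fewer cells of a type and less RNA per cell cannot be told apart.

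Endothelial genes moved in both directions. Of 9 tested 3 were called lower and 1 higher (median -0.58), and 3 and 2 with the block. Cdh5, the cadherin of endothelial junctions, had 3.40 and 7.12 CPM in WT, with 1 count in both KO libraries together against 226 in WT, a scaled ratio of 184 (95% counting interval 32.8 to 7317). Flt1, a VEGF receptor, had 2.66 and 4.76 CPM in WT and 0.154 and 0.529 CPM in KO (-3.48, SE 0.57, edgeR adjusted p = 0.00558). Pecam1, an adhesion molecule also found on ESCs, had 1.18 and 1.59 CPM in WT and 0.360 and 0.331 CPM in KO (-1.98, SE 0.36). Tek, the angiopoietin receptor, makes up nearly the whole endothelial sum in KO. It rose from 17.1 and 18.01 CPM to 31.3 and 63.6 CPM (1.43, SE 0.32, edgeR adjusted p = 0.0233), and its call was lost in 5 of the fits that left out 1 library, among them those without WT A, WT B or KO B of day 2 (adjusted p up to 0.165).

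Of 13 primitive endoderm genes 1 was called, higher (median 0.55), and with the block 6 were higher and 1 lower. Gata4, a transcription factor of that lineage, held 2 counts in both WT libraries together and 22 in KO, a scaled ratio of 13.5 (95% counting interval 3.31 to 118), and its call was lost without WT A or WT B (edgeR adjusted p up to 0.0653). The laminin and collagen genes Lamb1 and Col4a1, called with the block only, had log2 fold changes of 1.96 (SE 0.74) and 1.43 (SE 0.71). Lamb1 had 22.5 and 56.2 CPM in WT and 72.4 and 235 CPM in KO. The letters lay far apart in both genotypes, while KO was above WT within each letter.

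Several Wnt targets were lower in KO. Of 17 tested Wnt targets 6 were called lower and 1 higher (median -0.68). Axin2, a feedback inhibitor, had 12.03 and 16.6 CPM in WT and 2.26 and 3.64 CPM in KO (-2.29, SE 0.44, edgeR adjusted p = 0.0115). Sp5, a transcription factor, had 6.06 and 6.67 CPM in WT and no count in either KO library, which is at least 73.5-fold lower when 3 counts are taken as the limit for the pooled KO libraries. Notum, an enzyme that inactivates Wnt ligands, had 151 and 256 CPM in WT and 27.0 and 55.3 CPM in KO (-2.31, SE 0.45). The calls of Axin2 and Notum were lost without WT B or KO A (adjusted p up to 0.0792 and 0.0943).

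Among 25 Wnt ligands and antagonists 3 were called, each lower, and with the block 10 were higher and 6 lower. Wnt8a, a ligand, had 70.5 and 106 CPM in WT and 6.84 and 20.3 CPM in KO (-2.70, SE 0.54), a call that was lost without WT B (edgeR adjusted p = 0.0898). Porcn, the acyltransferase that lipidates Wnt ligands, had 141 and 178 CPM in WT and 34.7 and 53.1 CPM in KO (-1.86, SE 0.29). Dkk3, a secreted Dickkopf protein, had 1.82 and 2.00 CPM in WT and 0.257 and 0.265 CPM in KO. At day 0, 3 Wnt targets were called, each higher in KO, while the median of the list was -0.02. The direct test of day 2 against day 0, described below, called none of the 17 Wnt targets.

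The same windows were searched for the TCF letters CTTTGA and the reverse complement TCAAAG. Of the 6 Wnt targets called lower 4 had a window and 2 of these held matches, and of the 10 not called 6 had a window and none held one, against 13.8% of all windows. The 3 called members with a window and the lowest adjusted p lie at chr2:70474673-70474922 (plus strand), chr11:108920099-108920348 (plus strand) and chr19:30549497-30549746 (minus strand).
Sp5: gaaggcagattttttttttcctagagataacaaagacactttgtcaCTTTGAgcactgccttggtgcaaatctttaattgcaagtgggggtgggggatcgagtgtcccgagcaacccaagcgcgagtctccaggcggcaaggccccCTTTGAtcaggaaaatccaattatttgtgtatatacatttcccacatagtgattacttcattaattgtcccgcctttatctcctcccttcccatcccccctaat
Axin2: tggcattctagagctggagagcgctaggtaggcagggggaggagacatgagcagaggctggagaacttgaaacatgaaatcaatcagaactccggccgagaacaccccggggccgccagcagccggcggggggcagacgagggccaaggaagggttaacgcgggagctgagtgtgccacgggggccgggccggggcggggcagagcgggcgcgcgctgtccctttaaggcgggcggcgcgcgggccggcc
Dkk1: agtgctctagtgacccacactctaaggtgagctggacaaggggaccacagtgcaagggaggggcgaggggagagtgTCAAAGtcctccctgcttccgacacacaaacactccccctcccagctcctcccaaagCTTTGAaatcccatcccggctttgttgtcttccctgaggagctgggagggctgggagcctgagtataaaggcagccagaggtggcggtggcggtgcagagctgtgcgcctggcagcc
Sp5 and Dkk1 each hold 2 matches. Axin2 holds none in this window, which says only that these letters are absent there.

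Many Hox genes, which set position along the body axis, were higher in KO. Of 29 tested 12 were called higher and 2 lower, with a median of 1.08. All 7 tested genes of the HoxC cluster were called higher (median 2.84), 4 of 8 in HoxD, 1 of 4 in HoxB and none of 10 in HoxA. In HoxB 1 of the 4 was called lower. DESeq2 and limma-voom also called no HoxA gene higher, and edgeR, DESeq2 and limma-voom each called 1 of the 10 lower. The one called lower by edgeR was the only HoxA gene with an unadjusted p under 0.05. The HoxA median was -0.20, and with the block 3 were lower and none higher. Hoxd13 had 14.7 and 12.3 CPM in WT and 94.3 and 63.1 CPM in KO (2.54, SE 0.26, edgeR adjusted p = 0.000623). Hoxb3 rose from 0.246 and 0.408 CPM to 4.01 and 6.49 CPM (3.96, SE 0.42). Hoxc5 had 0.0986 and 0.227 CPM in WT and 2.52 and 1.46 CPM in KO, and Hoxc13 0.345 and 0.181 CPM in WT and 2.06 and 1.52 CPM in KO. Levels of Hoxb3, Hoxc5 and Hoxc13 were low in both genotypes, and the groups did not overlap, which holds for each called gene.

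Some interferon-response genes were lower in KO. Of 22 tested 7 were called, each lower (median -1.44, or -1.55 with low-count genes at their ratio or bound). Oas1a, an antiviral oligoadenylate synthetase, had 24.6 and 20.0 CPM in WT and 2.42 and 1.46 CPM in KO (-3.51, SE 0.34, edgeR adjusted p = 0.000492). Zbp1, a sensor of nucleic acids, had 10.6 and 9.62 CPM in WT and 1.23 and 0.728 CPM in KO. Ifih1, a sensor of double-stranded RNA, and Irf7, a transcription factor of the response, had log2 fold changes of -3.51 (SE 0.41) and -2.70 (SE 0.38). Of 13 MHC class I genes 2 were called higher and 1 lower (median -0.27), and with the block 4 higher and 4 lower. Nlrc5, their transactivator, had 0.148 and 0.272 CPM in WT and 2.42 and 5.16 CPM in KO (4.11, SE 0.65). B2m, the light chain, rose from 56.8 and 63.3 CPM to 148 and 233 CPM (1.67, SE 0.29). The call of B2m was lost without WT A or WT B (adjusted p up to 0.0643). Psmb8, an immunoproteasome subunit, fell from 3.94 and 3.54 CPM to 0.257 and 0.529 CPM, a call that was lost without KO A (adjusted p = 0.0571).

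Some targets of ATF4, the transcription factor of the amino acid and integrated stress response, were higher in KO. Of 18 tested 4 were called, each higher (median 1.03), and with the block 15 were higher and 1 lower. Chac1, an enzyme that degrades glutathione, had 4.29 and 3.13 CPM in WT and 40.3 and 23.9 CPM in KO (3.11, SE 0.34, edgeR adjusted p = 0.000807). Trib3, a pseudokinase, had 15.2 and 15.1 CPM in WT and 51.0 and 38.7 CPM in KO (1.57, SE 0.18). The mitochondrial folate enzymes Mthfd2 and Shmt2 had log2 fold changes of 1.56 (SE 0.36) and 0.94 (SE 0.20). Their calls were lost in 4 and 5 of the fits that left out 1 library, the day 2 WT libraries among them (adjusted p up to 0.160 and 0.177). Of 19 cholesterol synthesis genes 2 were called, each higher (median 0.44), and with the block 11 were higher.

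Of 24 imprinted genes 5 were lower and 1 higher (median -0.12), and with the block 8 were lower and 4 higher. Peg10, a retroelement-derived placental gene, had 1859.5 and 1829 CPM in WT and 365 and 408 CPM in KO (-2.25, SE 0.28, edgeR adjusted p = 0.00161). Igf2, a growth factor, had 38.0 and 51.5 CPM in WT and 6.84 and 9.33 CPM in KO (-2.47, SE 0.24), and Mest 29.9 and 27.0 CPM in WT and 10.9 and 12.8 CPM in KO. Of 7 genes of the primed epiblast, the state after the naive one, 3 were lower and 2 higher. Otx2, a transcription factor of that state, had 8.18 and 8.44 CPM in WT and 0.154 and 0.199 CPM in KO (-5.52, SE 0.45), while Pou3f1 rose from 0.493 and 0.454 CPM to 2.68 and 1.85 CPM (2.25, SE 0.34). Dnmt3b, a de novo DNA methyltransferase, was the one of 14 DNA methylation genes that was called, at 36.7 and 40.2 CPM in WT and 9.52 and 10.7 CPM in KO. With the block 1 of the 14 was higher and 1 lower, against 20.8% and 19.6% of all genes tested in that fit. The higher one was Tet3, which oxidises methylated cytosine (0.56, edgeR adjusted p = 0.000876).

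Of 13 neural genes 1 was higher and 1 lower (median 0.57). With the block 3 were higher and 3 lower, against 20.8% and 19.6% of all genes tested in that fit. The gene called lower without the block was Mtap2, whose log2 fold change lay between -1.17 and -1.01 when single libraries were left out. Sox1, a neural progenitor factor, rose from 48.7 and 49.8 CPM to 126 and 122 CPM (1.33, SE 0.17, edgeR adjusted p = 0.0017). Pax6, another neural transcription factor, had 0.296 and 0.499 CPM in WT and 0.875 and 0.463 CPM in KO, and Tubb3, a neuronal tubulin, 3.94 and 2.36 CPM in WT and 5.04 and 2.58 CPM in KO, neither of them called. Of 20 ERK targets 3 were lower and 2 higher (median 0.06), against 6.16% and 4.29% of all genes tested. With the block 6 were lower and 4 higher, against 19.6% and 20.8%. Dusp5, an ERK phosphatase, fell by 1.47 (SE 0.25), and Spred1, an inhibitor of the pathway, rose by 0.86 (SE 0.17) on the log2 scale, a call lost without WT A, WT B or KO B (adjusted p up to 0.105).

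Among 20 respiratory chain genes none was called by edgeR, DESeq2 or limma-voom, none passed an unadjusted p under 0.05, and the median was -0.03. Among 22 cell cycle genes none was called by edgeR or limma-voom and 1 was called higher by DESeq2, 2 passed an unadjusted p under 0.05, and 10 were lower and 1 higher with the block (median -0.17). No gene of 13 in the FGF list was called by edgeR or limma-voom, 1 was called higher and 2 lower by DESeq2, 5 passed an unadjusted p under 0.05, and 3 were higher and 3 lower with the block. These block counts are near the shares of all genes tested in that fit, 20.8% higher and 19.6% lower. Fgf4, a ligand of the pluripotent cell, was among the genes the block called lower (-0.59, edgeR adjusted p = 0.000681).

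**Figure D3:**
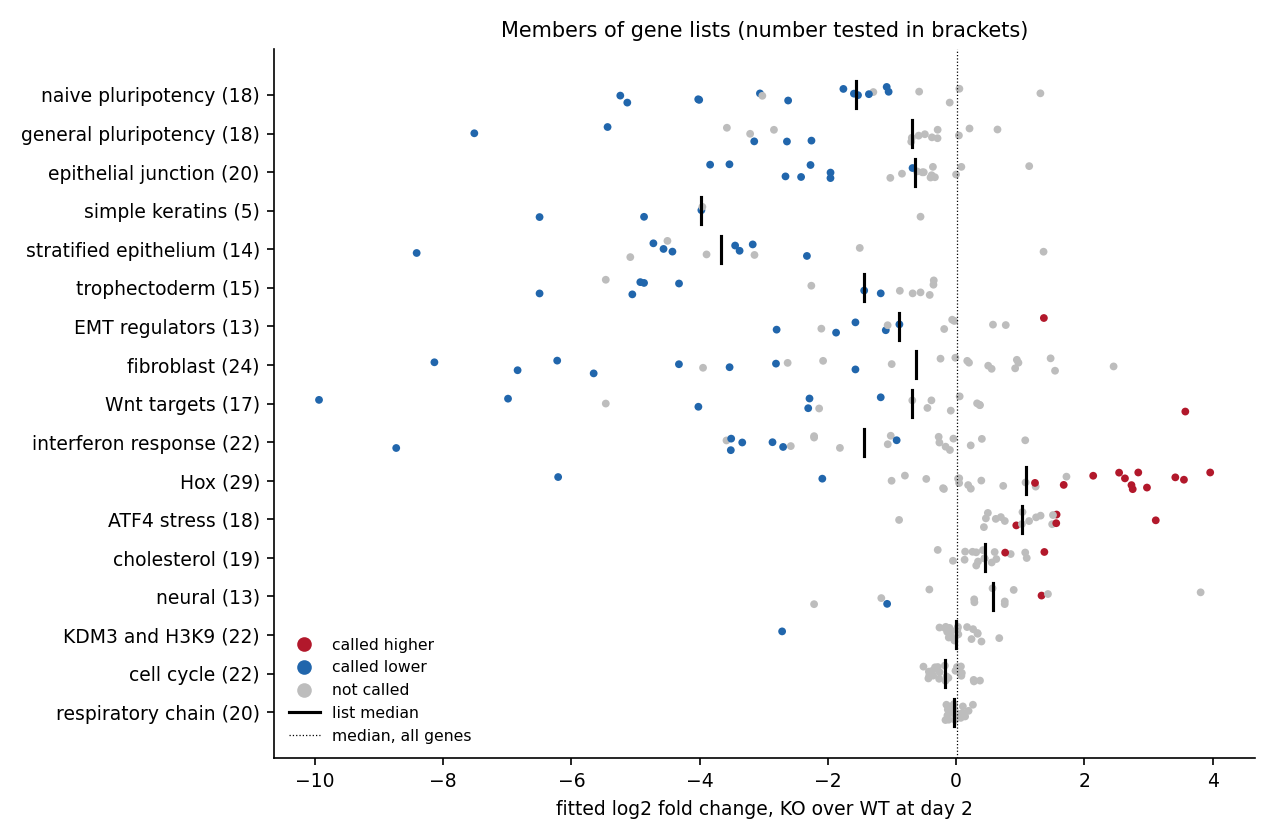
Fitted log2 fold change of KO over WT at day 2 for the tested members of 17 gene lists, with 1 point per gene, called genes in colour, a bar at each list's median and a dotted line at the median of all genes, 0.02. Naive, keratin, stratified, trophectoderm and interferon medians lie below -1, Hox and ATF4 medians above 1, and respiratory chain and cell cycle members near 0.

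Many of the day 2 differences were called at day 0 too. At that day, 386 genes were called higher (2.69%) and 801 lower (5.59%) in KO. Of the genes higher at day 2, 236 (38.4%) were also higher at day 0, and of the genes lower at day 2, 490 (55.5%) were also lower at day 0. In turn 61.1% of the higher and 61.2% of the lower genes of day 0 were called the same way at day 2. Called lower at day 0 were 5 of 18 naive, 7 of 20 junction and 7 of 14 stratified genes. So were 5 of 15 trophectoderm and 6 of 22 interferon genes, and no gene of these lists was called higher at day 0. Among Hox genes 7 were higher and 2 lower at day 0, and 1 ATF4 target was higher. A direct test of the genotype difference at day 2 against that at day 0 called 28 genes (0.195%), 18 with a more positive and 10 with a more negative difference at day 2, while 996 had an unadjusted p under 0.05. With the block it called 1336 genes (10.1%), DESeq2 called 223, and the fit of days 0 and 2 alone without the block called 0 (708 at an unadjusted p under 0.05). The 28 calls were few or gone without single libraries, with 0 to 14 left, and 0 without WT A or WT B of day 0, WT A of day 2 or KO B of day 0. The trophectoderm list held 1 of the 28, and the naive, junction, stratified, interferon and Wnt target lists held none.

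Gata2 was among the genes whose difference grew. It had a log2 fold change of -1.81 at day 0 and -5.05 at day 2, a change of -3.24 (edgeR adjusted p = 0.0483). Igf2 was 0.96 at day 0 and -2.47 at day 2, and Lgals9, which encodes the lectin galectin-9, was -0.67 and -4.21 (changes of -3.43 and -3.55). Serpina3m, a serine protease inhibitor, was 1.28 at day 0, not called, and -5.25 at day 2 (change -6.53, edgeR adjusted p = 0.0113). Other differences shrank. Peg10 was -5.27 at day 0 and -2.25 at day 2 (change 3.02), and Trap1a, a tumour antigen gene of the X chromosome, was -6.11 and -2.16 (change 3.96). Rgs8, a regulator of G protein signalling, turned from -2.59 at day 0 to 1.85 at day 2 (change 4.45, edgeR adjusted p = 0.0113).

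At day 10, 1782 genes were called higher (12.4%) and 2846 lower (19.9%). Of the day 2 genes, 294 higher (47.8%) and 540 lower (61.2%) were called the same way at day 10, which is 16.5% and 18.97% of the day 10 calls. The opposite call at day 10 was found for 114 of the higher and 60 of the lower genes. The direct test of the difference at day 10 against that at day 2 called 1526 genes (10.7%), 692 more positive and 834 more negative, and 641 without WT B of day 10. Wnt8a was -2.70 at day 2 and 3.29 at day 10 (change 5.99, edgeR adjusted p = 0.0029), and Cbr2 was -5.49 and 0.19 (change 5.68). Cadm1, a cell adhesion molecule, was 3.37 at day 2 and -2.14 at day 10 (change -5.51). Chac1 was 3.11 and -2.15 (change -5.27), and Trib3 1.57 and -2.31 (change -3.88). Rfx4 (3.43 and 3.85), Cdh1 (-3.54 and -2.70) and Dppa5a (-4.01 and -4.49) were called the same way on both days.

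**Figure D4:**
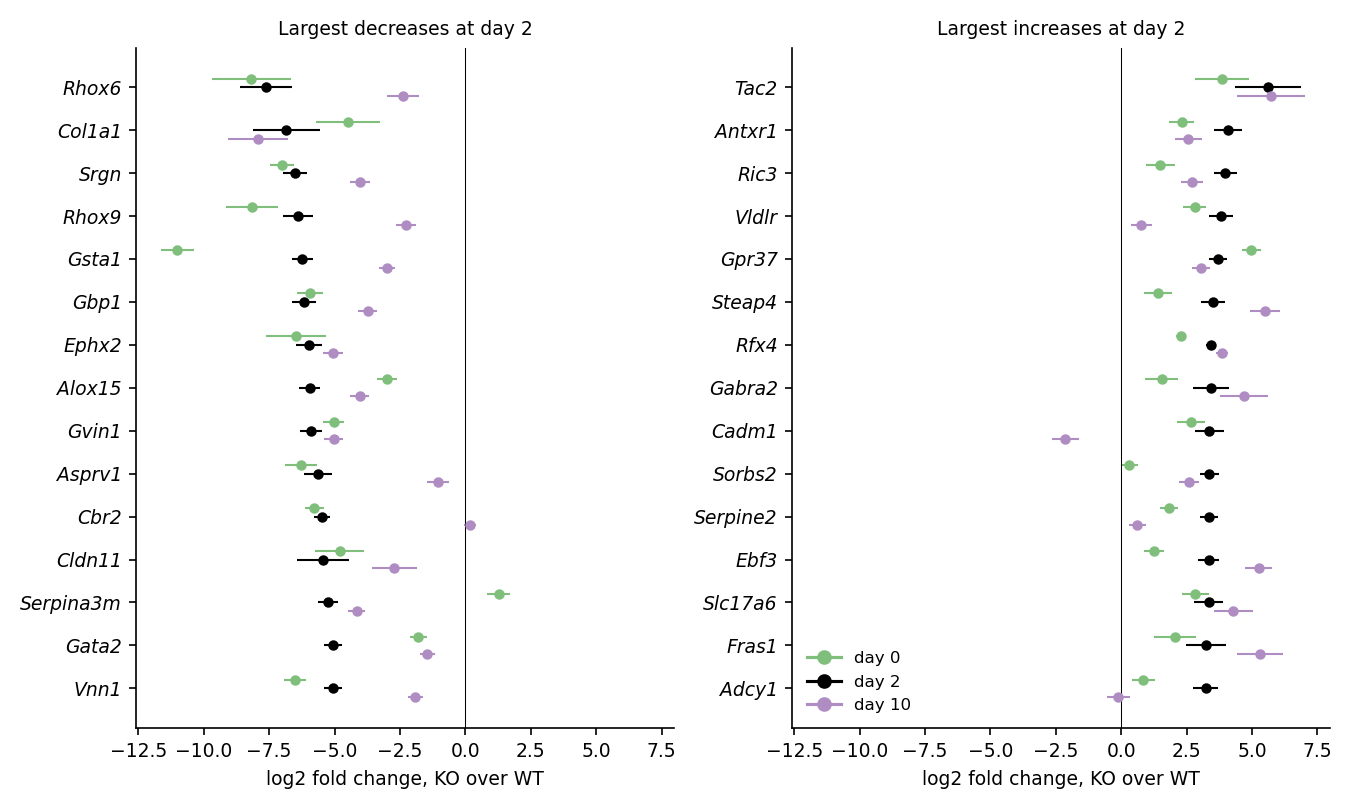
Fitted log2 fold change of KO over WT at day 0 (green), day 2 (black) and day 10 (purple) for the 15 largest decreases and the 15 largest increases of day 2, with bars of 1 SE. Serpina3m lies above 0 at day 0, Cbr2 near 0 and Cadm1 below 0 at day 10, while most of the other genes lie on the day 2 side of 0 on all 3 days.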

How the data were processed

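RNA was sequenced single-end. Per the submitters' processing notes, the authors used Bowtie2, RSEM and mm9, with no versions named. The deposited files give RSEM expected counts and TPM per gene. After rounding, the expected counts were fitted with edgeR 4.0.16 in R 4.3.3 (quasi-likelihood, filterByExpr, TMM) over the 12 pre-iPSC libraries in 6 groups, with 6 residual degrees of freedom and Benjamini-Hochberg adjustment over 14324 genes. The deposited TPM were read but entered no result. The common biological coefficient of variation was 0.266. Levels are CPM on TMM-scaled totals, and within-letter differences use log2 CPM with a prior count of 2. Intervals and floors (3 counts) cover counting error only.

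Same-letter libraries deviated together at days 0 and 2 (correlations of 0.741 to 0.812 over all 6 pairs of groups) and not with day 10 (between -0.061 and 0.0492), so the letter pairs samples at days 0 and 2, where it was fitted as a block. Alternatives were other scalings and filters, DESeq2 1.42.0, limma-voom (limma 3.58.1), the block, fewer libraries and leaving out each library. The fit was also run on simulated data that took the spread from this fit and held no letter effect. That run cannot show how the fit without the block behaves where letters deviate together.

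The comparison and the 38 gene lists (678 of 685 entries found) were chosen with earlier results of these data known, and support nothing independently. The genes counted as named are Kdm3b and the 15 largest called changes in each direction among genes averaging at least 5 CPM whose groups do not overlap. They also include the 4 members of each list with the lowest p that averaged at least 1 CPM, and the reprogramming and KDM3 genes. The 8 largest changes in each direction between days among genes averaging at least 5 CPM, and the defining markers, complete them. Not all of these are described in the text. Among those left out, the calls of Alpl, Ascl2, Gata3, Etv4 and Fras1 were lost in several fits that left out 1 library, while those of Steap4 and Cldn7 were kept. Dkk1 is shown for its window, and Dsg2, Utf1, Hoxc4 and Hoxc6 are plotted, all chosen after their values were seen. Pecam1, which averaged under 1 CPM, is named outside this rule, and no fit leaving out single libraries is given for it. The summed neural markers are not reported here. Not every list is described above. In the immune list 0 of 7 were called by edgeR, DESeq2 and limma-voom, 2 had an unadjusted p under 0.05, and 1 was higher and 1 lower with the block. In the muscle list 1 of 7 was lower, against 6.16% of all genes tested, and 2 were lower with the block.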

Additional observations from a re-analysis of the deposited data

Results flagged for a closer look

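The genotype difference (log2, KO over WT) of the following genes differed between days by edgeR's direct test of the difference, adjusted over all genes. The genes are the 8 largest called in each direction among those that averaged at least 5 CPM over the 8 libraries of the contrast, without unnamed transcripts, or all where fewer passed, and others described above.

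Between day 0 and day 2 the difference became more positive for Rgs8 (by 4.45), Trap1a (3.96), Ptn (3.72), Armcx2 (3.24), Peg10 (3.02), Tnfsf11 (2.88), Wdfy4 (2.68) and Mtap2 (2.54). At day 2 itself, Tnfsf11, a TNF family cytokine, had 3.11 and 2.86 CPM in WT and 11.6 and 16.9 CPM in KO, and Ptn, the growth factor pleiotrophin, was not called (0.97, edgeR adjusted p = 0.106). Rgs8 and Tnfsf11 were called higher in KO on that day. Trap1a, Armcx2, Peg10, Wdfy4 and Mtap2 were called lower, so that their difference shrank from day 0 to day 2. The call of Armcx2 was lost in most fits that left out 1 library. The difference became more negative for Chst1 (-3.59), Lgals9 (-3.55), Igf2 (-3.43), Gata2 (-3.24), Lhfpl2 (-2.31), Tgm3 (-2.01) and Olfm1 (-1.95), the 7 of 10 called genes that met this rule. Of the other 3, 1 was an unnamed transcript and 2 averaged less, among them Serpina3m, which had the largest change of the 10 (-6.53, at a mean of 3.77 CPM). Chst1, a sulfotransferase, was 1.30 at day 0 and -2.29 at day 2. The calls in this contrast fell to between 0 and 14 when single libraries were left out.

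Between day 2 and day 10 the difference became more positive for Plcb1 (by 6.30), Wnt8a (5.99), Rbm47 (5.79), Cbr2 (5.68), Rhox6 (5.24), Wdfy4 (4.86), Btla (4.86) and Cxx1c (4.85). Plcb1, a phospholipase, was -1.68 at day 2 and 4.62 at day 10. It became more negative for Xlr5b (-9.04), Gli2 (-8.10), Sept3 (-8.09), Prdm16 (-8.02), Alpk3 (-6.69), Aurkc (-6.54), Pdpn (-6.11) and Pcsk6 (-5.73). Cadm1 (-5.51), Chac1 (-5.27) and Trib3 (-3.88) lay outside the 8 largest. Gli2, a Hedgehog transcription factor, was 3.27 at day 2 and -4.83 at day 10. At day 2, Rbm47 had no count in KO, Rhox6 had 2 in both KO libraries together and Prdm16 had 1 in both WT libraries together, so that the fitted sizes of these depend on the prior count and are not bounds.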

How the results depend on the processing

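With letter as a replicate block, day 2 calls numbered 2293 over all 12 libraries, 5366 over days 0 and 2 and 4566 over the 4 day 2 libraries. Without the block they numbered 887 over days 0 and 2 and 79 over the 4 libraries (8 higher, 71 lower), and 647 to 1458 when 1 library was left out. The calls for day 2 against day 0 numbered 91 and 1336 with the block (all 12 libraries, days 0 and 2), 0 over days 0 and 2 without it, 223 with DESeq2 and 0 to 14 with 1 library left out. Those for day 10 against day 2 numbered 2573 with the block, 2455 with DESeq2 and 641 to 1343 with 1 library left out. Fits with fewer libraries have fewer residual degrees of freedom, and the cause of the other differences was not tested.

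Kdm3b was past the threshold in each fit except that of the 4 libraries without the block (-2.72, edgeR adjusted p = 0.0532). Of 137 other named genes called at day 2, 137 were called with the block over days 0 and 2, 88 in each fit that left out 1 library and 26 with the 4 libraries alone without the block. No called gene named here changed sign under any setting run. With 2 libraries per group, 1 count is worth 0.0453 to 0.0662 CPM, and genes near that level could not be sized.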
